A study of Mus musculus with 17 samples.

Results

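The 10 genes described here are 5 NF-kappaB subunit genes (Nfkb1, Nfkb2, Rela, Relb and Rel), 2 cytoplasmic inhibitors (Nfkbia and Nfkbib), 2 atypical nuclear inhibitor proteins (Nfkbiz and Bcl3) and the feedback deubiquitinase gene Tnfaip3. They were taken by symbol from a given list, which was chosen with earlier results of these data known. All 10 were found among the 25198 genes of the count table. Transcripts were counted by RNA-seq in cultured ovarian follicles of CD1 mice, with 11 Control and 6 Tyrphostin libraries, each from a triplicate of follicles. The follicles, labelled 16 days old and antral, were cultured for 8 days in eIVFG, encapsulated in vitro follicle growth. Tyrphostin libraries came from follicles given hCG, the hormone used to trigger ovulation in culture, together with 10 µM of the EGFR kinase inhibitor Tyrphostin-AG1478, in DMSO, for 4 h. The labels carry that same treatment text for the Control samples, so whether Control follicles received hCG or DMSO is not stated. The labels name 2 batches: batch 1 holds 6 Control and 3 Tyrphostin libraries, and batch 2 holds 5 and 3.

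NF-kappaB is a family of dimeric transcription factors that inhibitor proteins of the IkappaB family hold in the cytoplasm until the IKK kinases target those inhibitors for degradation. Active dimers switch on inflammatory genes and also their own brakes: the gene for the inhibitor IkappaBalpha (Nfkbia) and the gene for the ubiquitin-editing enzyme A20 (Tnfaip3). Ovulation shares many induced genes with inflammation, and in the follicle the ovulatory hormone acts in part through EGF-like ligands and the EGFR on granulosa and cumulus cells.

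Several members carry the binding motif of their own family close to the transcription start, which is why those stretches are shown first. RefSeq promoter windows (build GRCm38.p6, 250 bases before to 50 after each start) existed for 7 of the 10 members, and 5 of these 7 (Nfkb2, Rel, Nfkbia, Tnfaip3 and Bcl3) held a match to the 10-base kappaB consensus, searched on both strands. Rela and Nfkbib had a window without a match. Of all 32851 windows, 4.51% held one, and of all 27025 genes with a window, 5.14% did. The stretches below are written 5′ to 3′ on the gene's strand, with the matched bases in capitals and up to 10 bases on each side. Distances from the start are those of the first matched base, while coordinates cover the whole stretch. The first Nfkb2 and Rel matches each overlap another match shifted by 1 base. The 6 Nfkb2 matches were counted over 3 partly overlapping windows, and the match at chr19:46305705-46305714 was counted in both window 2 and window 3. Only the first Nfkb2 match is shown, and the Bcl3 match is not shown. Il6, a cytokine gene whose values are given further on, is included for comparison.
Nfkb2, from 39 bases before the start, chr19:46304688-46304717, plus strand, within an annotated Nfkb2 exon: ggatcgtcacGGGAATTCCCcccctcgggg
Rel, from 92 bases before the start, chr11:23771042-23771071, minus strand: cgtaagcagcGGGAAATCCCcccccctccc
Nfkbia, from 29 bases before the start, chr12:55492657-55492686, minus strand: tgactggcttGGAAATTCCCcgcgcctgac
Tnfaip3, from 125 bases before the start, chr10:19015516-19015545, minus strand: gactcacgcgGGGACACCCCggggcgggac
Tnfaip3, from 12 bases before the start, chr10:19015411-19015432, minus strand: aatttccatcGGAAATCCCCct
Il6, from 44 bases before the start, chr5:30013060-30013089, plus strand: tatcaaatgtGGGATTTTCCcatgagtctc
A match is a run of letters in a sequence; binding of NF-kappaB was not measured in these follicles.

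Library totals ran from 1820545 counts in Control 6 to 8291024 in Control 8, and 12538 to 16383 genes had a count. Levels are given as CPM, counts scaled by the TMM library size to a common total, on which 3 counts correspond to 0.336 to 1.64 CPM. The library Control 7 stood apart with a mitochondrial share of 0.175% of counts, against 0.781% to 2.83% in the other 16. Dusp6 and Egr1, which EGFR signalling induces, served as a check of the inhibitor. Dusp6 fell by 2.05 and Egr1 by 1.71 on the log2 scale (edgeR's quasi-likelihood test). Every Tyrphostin library was below every Control library for both. They come from a list of 8 EGFR pathway readouts, of which 7 were tested. Of the 7, 4 were called lower at an adjusted p under 0.05, where 6.25% of all genes tested were, and 3 were not called. Log2 fold changes in the list ran from -2.59 to -0.06. Nothing in the labels says that libraries came from separate animals or cultures, so p-values measure only the spread between these libraries. In whole follicles, fewer cells of a type and less RNA per cell cannot be told apart.

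Set per kilobase of merged exon, Nfkbia stood far above the other members. In Control libraries it had 197 ± 66.6 CPM per kb (SD, n = 11), 8.72 times the level of Nfkbiz, the next gene, and was above it in 11 of 11 libraries. A middle group followed with closely spaced means: Nfkbiz had 22.6, Nfkbib 17.6, Nfkb2 17, Rela 16.2, Relb 12.2 and Rel 8.19 CPM per kb. No neighbours within that group differed by more than the larger of their 2 SDs. Nfkb1 (4.07 ± 1.46 CPM per kb) was lower than Rel by more than that spread, and did not differ from Tnfaip3 (3.85 ± 1.88, SD, n = 11) beyond it. Bcl3 was last at 0.650 ± 0.424 CPM per kb. In Tyrphostin libraries Nfkbia was again first (260 ± 61.8, SD, n = 6), and Rel, Nfkb1, Tnfaip3 and Bcl3 again held the last 4 places, while Rela moved from the fifth to the next place after Nfkbia with a wide spread (23.2 ± 15.3 CPM per kb).

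**Figure D1:**
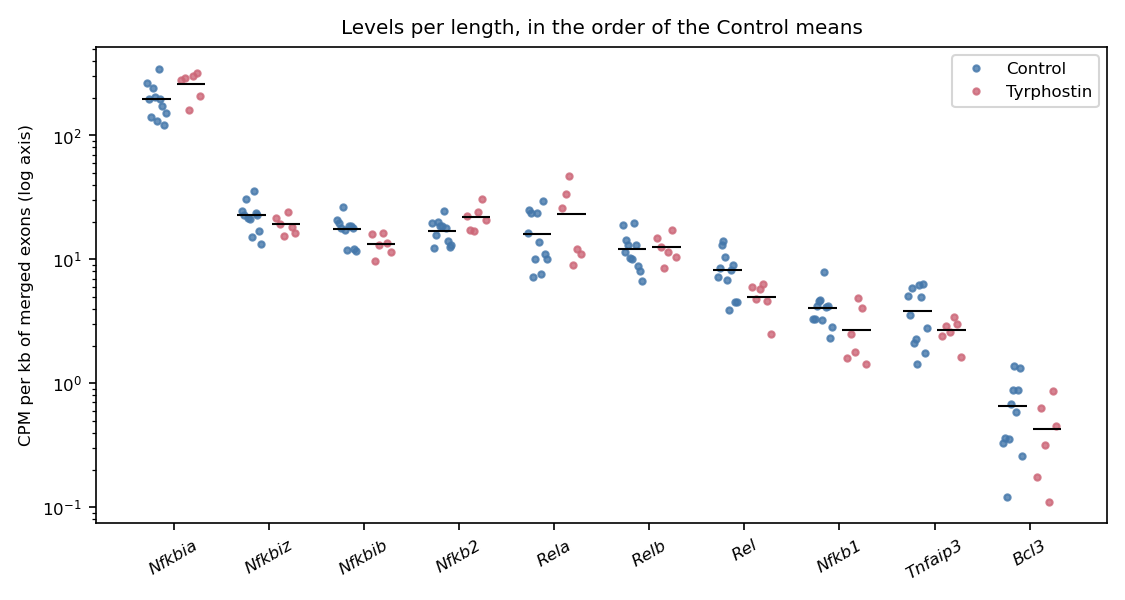
Level of each member as CPM per kilobase of merged exon (log axis) in every Control (blue) and Tyrphostin (red) library, ordered by the Control mean, with the mean as a line. Nfkbia lies above all others in each group, and Bcl3 lies lowest.

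The treatment comparison asked whether follicles under the EGFR inhibitor differed from Control in these genes. No member passed the test on the full set of libraries. In that fit, which held batch as a term, 9 members had enough counts to be tested (Bcl3 did not), and 0 of 9 were called at an adjusted p under 0.05 by the quasi-likelihood test of edgeR, against 10.6% of all 9603 genes tested. At an unadjusted p under 0.05 there were 4 of 9 in edgeR (Nfkb1, Nfkb2, Rel and Nfkbib), where 23.7% of all genes tested lay. DESeq2 called 1 member, Rel, where it called 1313 of all 9603 genes, and limma-voom called 0, where it called 1137. At an unadjusted p under 0.05 there were 3 members in DESeq2 and 4 in limma-voom, where 25.1% of all genes tested lay in each. The log2 fold changes ran from -0.65 to 0.39 with SEs of 0.17 to 0.33. Their median was -0.24 (4 above 0 and 5 below), beside 5.42e-05 for all genes tested. Below, edgeR log2 differences set beside means of CPM come from the fit and are not the log2 ratio of those means.

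**Figure D2:**
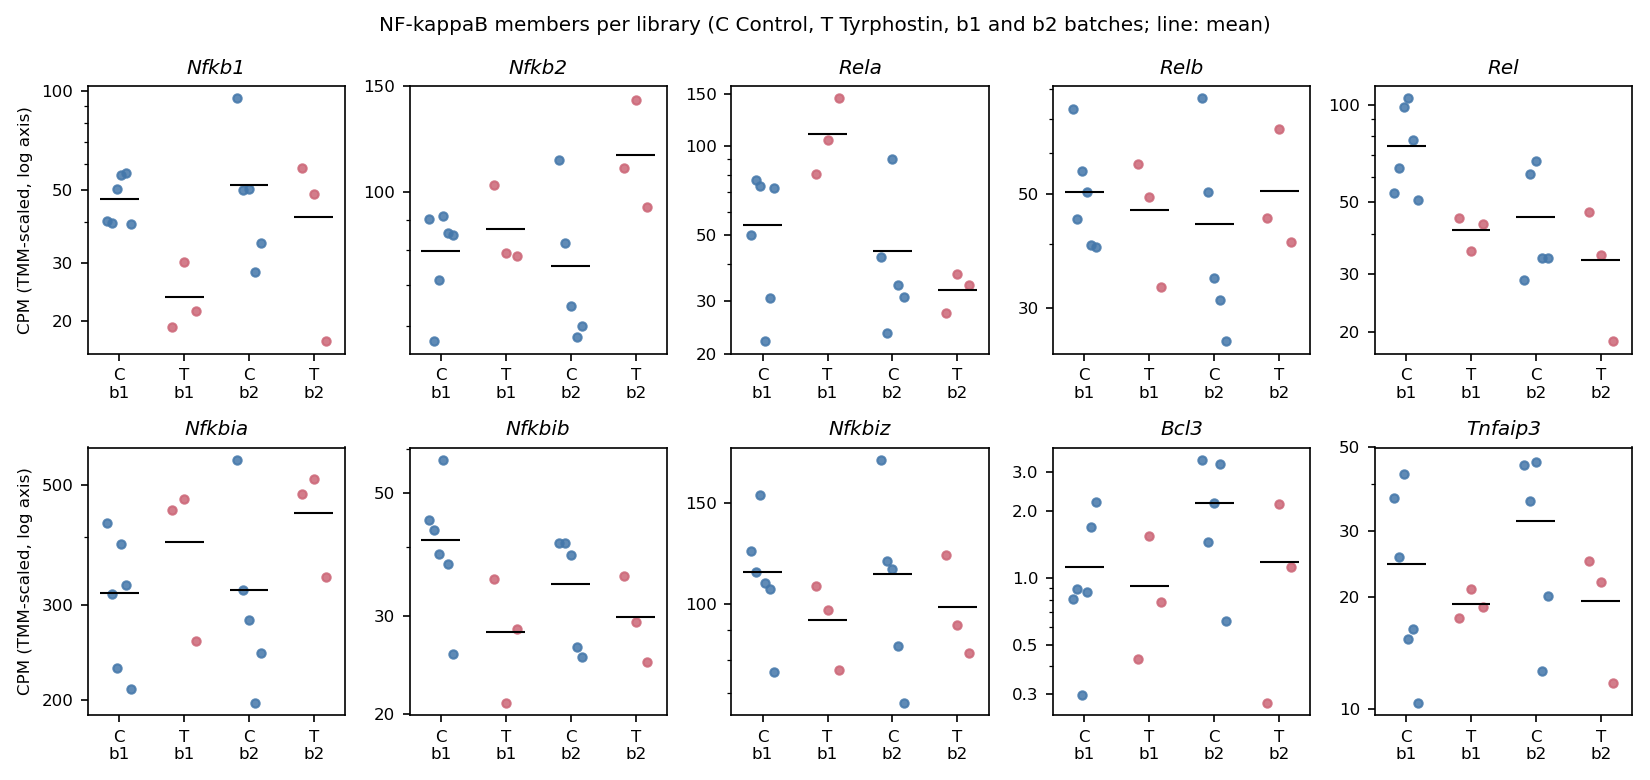
CPM of each member (log axis) in every library, by group (C Control, T Tyrphostin) and batch (b1, b2), with the group mean as a line. The 3 Tyrphostin libraries of batch 1 lie below all 6 Control libraries of that batch for Nfkb1 and Rel and above them for Rela. How many of all genes tested separate in this way was not counted.

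Among the subunits, Rel and Nfkb1 had the lowest fold changes. Rel (chr11:23736847-23770970, minus strand, GRCm38) encodes c-Rel, a subunit best known in lymphocytes. It had a lowest, median and highest value of 28.9, 61.3 and 105 CPM in Control and of 18.7, 39.1 and 46.8 CPM in Tyrphostin libraries. All 6 Tyrphostin values lay below the Control median, but 5 of them lay within the Control range, whose low end was Control 7. The means were 61.2 ± 25.1 (SD, n = 11) and 37.1 ± 10.3 (SD, n = 6) CPM, a log2 difference of -0.65 ± 0.23 (SE) with a 95% interval of -1.12 to -0.18 and an edgeR adjusted p of 0.0723. Rel passed the threshold in DESeq2 (adjusted p = 0.0445), and in edgeR without Control 7 (-0.72, adjusted p = 0.0306), without Tyrphostin 4 (-0.82, adjusted p = 0.0277), and without Control 6, Control 7 and Tyrphostin 5 together (-0.79, adjusted p = 0.0297). The Control libraries themselves differed between batches by -0.71 ± 0.27 (SE) in log2 for Rel, batch 2 against batch 1, without passing the threshold (edgeR adjusted p = 0.0833).

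Nfkb1 (chr3:135584655-135691547, minus strand) encodes p105, which is processed to the DNA-binding subunit p50 and in its unprocessed form also acts as an inhibitor. Its lowest, median and highest values were 28.2, 49.97 and 95.02 CPM in Control and 17.3, 25.8 and 58.3 CPM in Tyrphostin libraries. Tyrphostin 1, 3 and 6 were below every Control library, Tyrphostin 4 and 5 were near the Control median, and Control 7 alone made the top of the Control range. The means were 49.0 ± 17.6 (SD, n = 11) and 32.5 ± 17.1 (SD, n = 6) CPM. The log2 fold change was -0.65 ± 0.26 (SE), with a 95% interval of -1.19 to -0.11 and an edgeR adjusted p of 0.123. Without Tyrphostin 4 it was -0.84 and passed the threshold (edgeR adjusted p = 0.0390).

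Nfkb2 encodes p100, the precursor of p52 and the hub of the noncanonical pathway. Its lowest, median and highest values were 56.5, 82.5 and 113 CPM in Control and 78.2, 98.7 and 142 CPM in Tyrphostin libraries. The groups overlapped, with Tyrphostin 5 alone above all Control libraries. The means were 78.0 ± 17.6 (SD, n = 11) and 101 ± 23.7 (SD, n = 6) CPM, a log2 difference of 0.36 ± 0.17 (SE; adjusted p = 0.199 in edgeR). Scaled by total counts rather than TMM it was 0.52 and passed the threshold (edgeR adjusted p = 0.0388); that scaling moved the median of all genes from 5.42e-05 to 0.15. On the other strand, exons of AC114539.1 overlap 11.6% and exons of Psd 6.52% of the Nfkb2 exon length, and the strand setting of the counting is not stated.

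Relb, the partner of p52, did not separate the groups. Control libraries averaged 47.4 ± 16.3 CPM (SD, n = 11) and Tyrphostin libraries 48.6 ± 12.1 CPM (SD, n = 6). The log2 fold change was 0.04 ± 0.21 (SE), and its 95% interval of -0.40 to 0.48 still allows a moderate change in either direction. Its sign changed when single libraries were left out (-0.08 without Tyrphostin 5, 0.17 without Control 7).

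Rela (chr19:5637483-5648130, plus strand) encodes p65, the main activating subunit of the canonical dimer, and its fold change had opposite signs in the 2 batches. That difference between batches did not pass the threshold (interaction, edgeR adjusted p = 0.9997). Its lowest, median and highest values were 22.0, 42.3 and 90.3 CPM in Control and 27.4, 58.6 and 145 CPM in Tyrphostin libraries. The means were 49.6 ± 24.3 (SD, n = 11) and 71.3 ± 47.0 (SD, n = 6) CPM, a log2 difference of 0.39 ± 0.33 (SE; adjusted p = 0.529 in edgeR). The high Tyrphostin values were all in batch 1, where Tyrphostin 1, 2 and 3 had 80.2, 104 and 145 CPM and no Control library exceeded 76.5 CPM. In batch 2, Tyrphostin 4, 5 and 6 had 27.4, 36.9 and 33.9 CPM and lay inside the Control range of 23.5 to 90.3 CPM.

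Of the 2 cytoplasmic inhibitors, Nfkbia was the most abundant member. Its protein, IkappaBalpha, is the classical early feedback inhibitor of the pathway. Nfkbia had a lowest, median and highest value of 197, 314 and 558 CPM in Control and of 257, 460 and 514 CPM in Tyrphostin libraries. All Tyrphostin values lay inside the Control range, 5 of 6 above the Control median, and the top Control value was that of Control 7. The means were 317 ± 107 (SD, n = 11) and 419 ± 99.4 (SD, n = 6) CPM, a log2 difference of 0.39 ± 0.21 (SE) with a 95% interval of -0.05 to 0.84 and an edgeR adjusted p of 0.277. Without Control 7 the log2 fold change was 0.53 (edgeR adjusted p = 0.0636).

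Nfkbib, which encodes the slower-responding IkappaBbeta, had the opposite sign. Its lowest, median and highest values were 25.4, 38.9 and 57.4 CPM in Control and 21.0, 28.9 and 35.5 CPM in Tyrphostin libraries. All 6 Tyrphostin values lay below the Control median and 2 lay below all Control libraries. The means were 38.1 ± 9.52 (SD, n = 11) and 29.0 ± 5.68 (SD, n = 6) CPM, a log2 difference of -0.38 ± 0.18 (SE; adjusted p = 0.201 in edgeR). Exons of Ccer2 on the other strand cover 14.5% of the Nfkbib exon length, and those of Sirt2 cover 1.94%. Ccer2 had 21 counts and Sirt2 1235 in all libraries together.

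The nuclear members are Nfkbiz, whose protein IkappaBzeta acts as a coactivator at genes such as Il6, and Bcl3, which binds p50 and p52 dimers. Nfkbiz averaged 113 ± 32.4 (SD, n = 11) and 96.3 ± 16.5 CPM (SD, n = 6) in Control and Tyrphostin libraries, and every Tyrphostin value lay within the Control range. Its log2 fold change was -0.24 ± 0.19 (SE; adjusted p = 0.492 in edgeR). Bcl3 had 1 to 17 counts per library and stayed under the filter on low counts over all libraries and in batch 1. In batch 2, where it passed, its log2 fold change was -0.97 ± 0.72 (SE; adjusted p = 0.723 in edgeR). Its mean was 1.61 ± 1.05 (SD, n = 11) and 1.05 ± 0.713 CPM (SD, n = 6) in Control and Tyrphostin libraries. On the log2 scale, with a prior count of 2, the difference of Bcl3 was -0.46 (exact two-sided permutation test within batches over 4704 arrangements, p = 0.239), which does not exceed the spread at this depth.

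Tnfaip3, the gene of the feedback enzyme A20, was spread widely among Control libraries. Its lowest, median and highest values were 10.4, 25.6 and 45.6 CPM in Control and 11.8, 19.9 and 24.8 CPM in Tyrphostin libraries. All Tyrphostin values lay inside the Control range and below its median. The means were 27.8 ± 13.6 (SD, n = 11) and 19.3 ± 4.48 (SD, n = 6) CPM, a log2 difference of -0.53 ± 0.29 (SE; adjusted p = 0.290 in edgeR). Control values of Tnfaip3 differed between the control sets, which the first number of the library name divides into 5. In batch 1 the set of Control 1 to 3 had a mean of 34.9 CPM (25.6 to 42.4) and the set of Control 4 to 6 had 14.0 CPM (10.4 to 16.4). These 2 sets did not overlap, which was noted after the values were seen. Of the other members, only Nfkbiz also separated them (114 to 155 and 76.1 to 109 CPM), while Nfkb1, for example, overlapped (39.6 to 50.5 and 39.4 to 56.2 CPM). How many of all genes tested separate these sets was not counted. The log2 fold change of Tnfaip3 in batch 1 was -0.37 against Control 1 to 6 (adjusted p = 0.615 in edgeR) and -0.86 against Control 1 to 3 alone (adjusted p = 0.0974), a fit chosen after seeing the data. In batch 2 the means were 40.5 CPM for Control 7 and 8, 45.6 CPM for Control 9 and 16.4 CPM for Control 10 and 11. What the sets stand for is not stated.

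The comparison was then made within each batch, with no library in common. In batch 1, 1 of 9 members tested passed the threshold, Nfkb1, against 6.73% of 9423 genes. Nfkb1 fell by 0.98 ± 0.24 (SE) on the log2 scale in batch 1 (edgeR adjusted p = 0.0148): the lowest, median and highest Control values were 39.4, 45.3 and 56.2 CPM, and Tyrphostin 1, 2 and 3 had 19.2, 30.1 and 21.5 CPM. The groups did not overlap, but the call was lost without Tyrphostin 1 (-0.85, edgeR adjusted p = 0.0868) or Tyrphostin 3 (-0.91, adjusted p = 0.0645).

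Rel and Rela also separated in batch 1 without passing the threshold. At an unadjusted edgeR p under 0.05 there were 4 of 9 members in batch 1, where 21.2% of all genes tested lay. How many of all genes tested separated without overlap was not counted. For Rel the 3 Tyrphostin values (44.8, 35.4 and 42.7 CPM) lay below all 6 Control values (50.9 to 105 CPM), with a log2 difference of -0.86 ± 0.26 (SE; adjusted p = 0.0556 in edgeR). Leaving out Control 1 (adjusted p = 0.0413) or Control 6 (adjusted p = 0.0271) brought Rel past the threshold in edgeR. For Rela the log2 fold change was 1.03 ± 0.34 (SE; adjusted p = 0.0800 in edgeR). Without the filter on low counts it was called (adjusted p = 0.000467).

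In batch 2, 0 of 10 members tested had an adjusted p under 0.05 in edgeR, against 0.621% of 9830 genes. DESeq2 also called 0, where it called 303 of 9830 genes. At an unadjusted edgeR p under 0.05 there was 1 member, Nfkb2, where 10.7% of all genes tested lay. Nfkb2 had 94.6, 110 and 142 CPM in Tyrphostin 6, 4 and 5 and a Control range of 57.5 to 113 CPM, a log2 difference of 0.62 ± 0.26 (SE; adjusted p = 0.412 in edgeR). Nfkb1 was at -0.31 ± 0.43, Rel at -0.43 ± 0.36 and Rela at -0.41 ± 0.39 (SE) in this batch. Of the 9 members tested in both batches, 7 had the same sign in each. The exceptions were Rela and Relb.

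The difference between the batches was tested as an interaction. In edgeR 0 of 9 members and 0 of 9603 genes (0%) had an adjusted p under 0.05, as in DESeq2. At an unadjusted p under 0.05 there was 1 member, Rela, beside 3.56% of all genes. The interaction of Rela was -1.44 ± 0.57 (SE) in log2, batch 2 against batch 1, with a 95% interval of -2.62 to -0.25 and an unadjusted edgeR p of 0.0202. It rested in part on Control 9, the highest Control library of batch 2: without it the batch 2 fold change of Rela was 0.02 in log2 in place of -0.41, and the interaction was -1.02. Among Control libraries alone, 0 of 9 members differed between batches in edgeR, against 14% of 6680 genes. Rel was the 1 member with an unadjusted edgeR p under 0.05 there, where 28.9% of all genes tested lay. It was also the 1 member that DESeq2 called (adjusted p = 0.0333), where DESeq2 called 1473 of 6680 genes.

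**Figure D3:**
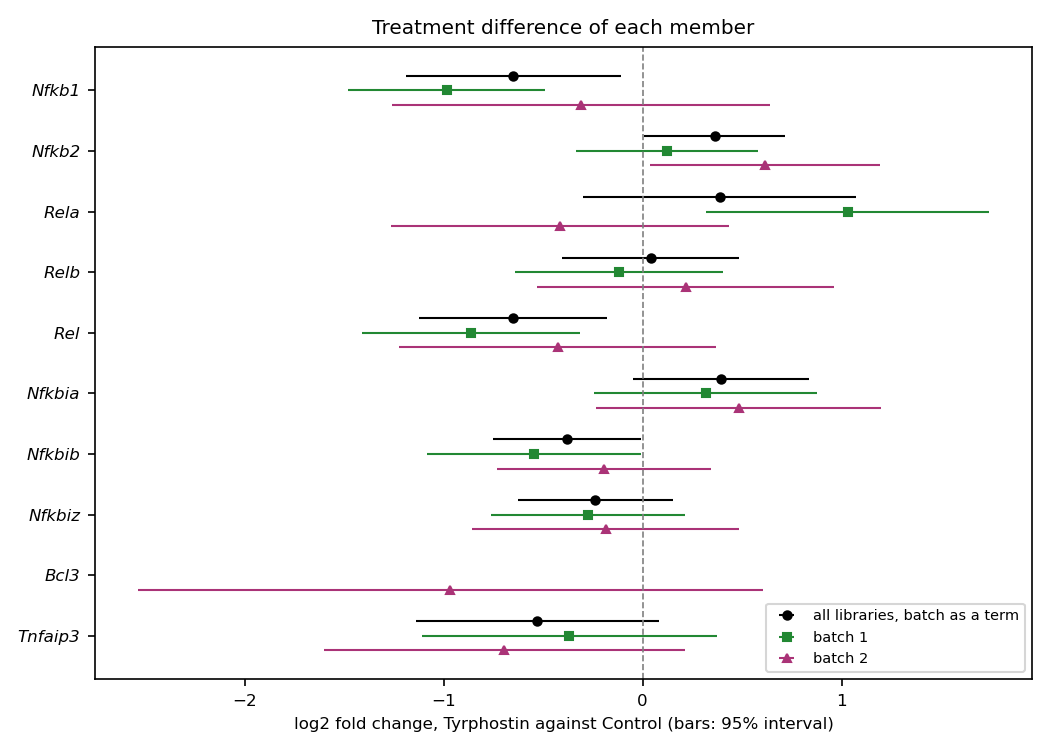
Log2 fold change of each member, Tyrphostin against Control, with 95% intervals, over all libraries (circles), in batch 1 (squares) and in batch 2 (triangles). Rela is the member whose batch values lie farthest apart, 1.03 and -0.41; Bcl3 was tested in batch 2 only.

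Single libraries held many of the extremes. Control 7 was the highest Control library for 6 members (Nfkb1, Nfkb2, Relb, Nfkbia, Nfkbiz and Bcl3) and the lowest for Rel, and Control 11 was above the Control median for 0 of 10. Among Tyrphostin libraries, Tyrphostin 4 was highest for 5 members (Nfkb1, Rel, Nfkbib, Nfkbiz and Tnfaip3) and Tyrphostin 5 for 4 (Nfkb2, Relb, Nfkbia and Bcl3). Tyrphostin 5 and Control 7 also held more leukocyte marker RNA than most libraries. The summed share of the 14 leukocyte markers was 0.109% in Tyrphostin 5 and 0.0288% in Control 7, with medians of 0.00658% in Control and 0.00547% in Tyrphostin libraries and the highest Control value, 0.0537%, in Control 8. Lyz2 made up 80.7% of these counts, and Itgam was at 0 in every library. Theca and stroma markers ranged from 0.0236% to 0.218% in Control and from 0.0301% to 0.373% in Tyrphostin libraries. Neither share differed between the groups in an exact two-sided permutation test within batches (adjusted p = 0.696 for both, over 6 marker lists). Without Control 6, Control 7 and Tyrphostin 5 together the log2 fold changes of Nfkb2 and Nfkbia were 0.35 and 0.41, beside 0.36 and 0.39 with them. That fit drops Control 6, with a leukocyte share of 0.00533%, and keeps Control 8. With 1 library left out, Nfkb2 was at 0.44 without Control 7 and at 0.26 without Tyrphostin 5, and Nfkbia at 0.53 without Control 7. The part of leukocyte markers in these values was not tested. The median log2 difference of the theca and stroma genes was -0.97 in batch 1 and 0.57 in batch 2, with 8 of 9 negative in batch 1. There Nfkb1 was at -0.98 and Rel at -0.86, while Rela was at 1.03. In batch 1, where 6.73% of all genes tested were called in either direction, 2 of the 9 were called lower. They were Col1a1 (-1.20, adjusted p = 0.0270 in edgeR) and Col1a2 (-1.28, adjusted p = 0.0442), named after their values were seen. Both calls were lost without Control 1, Control 5, Tyrphostin 1, Tyrphostin 2 or Tyrphostin 3, and that of Col1a2 also without Control 4 or Control 6 (adjusted p up to 0.152). Both were lost too with total-count scaling and against Control 1 to 3 alone (adjusted p up to 0.310). The part of these markers in the values of Nfkb1, Rel and Rela was not tested. Granulosa markers, led by Inha, made up 5.78% to 7.34% of counts in Control and 6.35% to 7.85% in Tyrphostin libraries, with Inha alone at 64.1% of those counts. Within that list 4 of 7 tested genes were called higher by edgeR, where 4.35% of all genes were: Hsd17b1 (2.64), Cyp19a1 (2.35), Nr5a2 (2.18) and Fshr (0.83 in log2), named after their values were seen. Fshr lost its call without Control 1, Control 3, Control 10, Tyrphostin 1, Tyrphostin 5 or Tyrphostin 6 (adjusted p up to 0.187, without Tyrphostin 1), without the batch term (0.0645), with Control libraries summed by set (0.0824) and with Control 7 to 11 left out (0.0971 with a replicate block and 0.229 with none). Inha itself was at -0.05 in log2 and was not called. The part of these markers in the members' values was not tested.

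The genes around the members were read next, from 7 lists of the pathway, also chosen with earlier results of these data known. Upstream of the subunits, the IKK and NIK kinase list had 0 of 8 tested genes called in either direction by edgeR, where 4.35% of all genes tested were called higher and 6.25% lower. At an unadjusted p under 0.05 there was 1, Map3k7, where 23.7% of all genes tested lay. It encodes the kinase TAK1 and is named after its values were seen (0.71 in log2, adjusted p = 0.0850 in edgeR). With limma-voom it was called higher, where 486 of all 9603 genes were. DESeq2 called 0 of the list, where it called 1313 of all genes. Ikbkb, the catalytic kinase of the canonical pathway, had a log2 fold change of 0.15. The other IkappaB proteins had 1 tested gene of 3, Nfkbil1, at -0.12, and it was not called. Among other feedback genes 0 of 11 were called by edgeR, DESeq2 or limma-voom. At an unadjusted p under 0.05 there was 1 in each, where 23.7%, 25.1% and 25.1% of all genes tested lay. Tax1bp1, a cofactor of A20, was at 0.18.

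Receptors and adaptors had 2 of 16 tested genes called, both lower, where 6.25% of all genes tested were called lower. Il1r1, the signalling receptor of interleukin 1, averaged 362 ± 131 (SD, n = 11) and 141 ± 40.9 CPM (SD, n = 6) in the 2 groups, and fell by 1.27 ± 0.22 (SE) on the log2 scale (edgeR adjusted p = 0.000356). Its Control range was 122 to 602 CPM with Control 7 at the bottom, and its Tyrphostin range was 92.9 to 194 CPM. Tnfrsf12a, the receptor of the cytokine TWEAK, fell by 1.19 ± 0.23 (SE; edgeR adjusted p = 0.00155), with means of 969 ± 457 (SD, n = 11) and 427 ± 202 CPM (SD, n = 6).

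Ligands were scarce. Only 2 of 8 were tested, and Tnf, named after its values were seen, had at most 5 counts in any library. Tnfsf11, which encodes RANKL, was called higher, with means of 7.62 ± 5.89 (SD, n = 11) for Control and 25.6 ± 18.5 CPM (SD, n = 6) for Tyrphostin, a log2 difference of 1.73 ± 0.50 (SE; adjusted p = 0.0339 in edgeR). The call was lost when Control 1, Control 8, Tyrphostin 1, Tyrphostin 2, Tyrphostin 3 or Tyrphostin 6 was left out (adjusted p up to 0.114, without Tyrphostin 2), with Control libraries summed by set (adjusted p = 0.224), without the filter on low counts (0.0972), without Control 6, Control 7 and Tyrphostin 5 together (0.0677), and with Control 7 to 11 left out and no block (0.0528).

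Among cytokine and chemokine targets 2 of 6 tested genes were called, both lower, where 6.25% of all genes tested were called lower. All 6 had a negative fold change, with a median of -1.12, beside 5.42e-05 for all genes tested. Within batches, 4 of 5 tested were negative in batch 1 and 5 of 7 in batch 2. With a filter of CPM of at least 5 in 6 libraries, 3 were tested and 1, Il6, was called. A gene scarce in Tyrphostin libraries, such as Lif below, can pass the low-count filter through Control libraries alone, which favours a negative sign. The shared sign is therefore not a test of the list. Il6 had a lowest, median and highest value of 5.25, 11.0 and 101 CPM in Control and of 0.373, 2.64 and 7.32 CPM in Tyrphostin libraries, and fell by 2.79 ± 0.51 (SE) on the log2 scale (edgeR adjusted p = 0.00151). The groups overlapped at their edge, with Control 7 the lowest Control and Tyrphostin 1 the highest Tyrphostin library. Lif, a cytokine of the same family named after its values were seen because of its low level, averaged 2.83 ± 0.759 (SD, n = 11) and 1.01 ± 0.479 CPM (SD, n = 6) in the 2 groups and fell by 1.55 ± 0.33 (SE; edgeR adjusted p = 0.00298).

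Other inducible targets had 4 of 15 tested genes called, all lower, where 6.25% of all genes tested were called lower. The list median was -0.33. DESeq2 called 6 lower, where it called 789 of all 9603 genes lower. With limma-voom 5 were called lower and 1 higher, where 651 and 486 of all 9603 genes were. The 4 that edgeR called were Ptgs2, the prostaglandin synthase of ovulation, Tnfaip6 and Ptx3, which help to build the cumulus matrix, and Myc, a growth regulator. Ptx3 fell by 3.23 ± 0.43 (SE; edgeR adjusted p = 5.83e-05), Ptgs2 by 2.40 and Tnfaip6 by 2.24 on the log2 scale. Myc fell by 1.32 ± 0.28 (SE; edgeR adjusted p = 0.00323). Other pathways also induce these targets, and which regulator the changes go with was not tested. Of the 8 called genes with a promoter window, 3 (Il1r1, Il6 and Ptx3) held a kappaB match. A second motif that was searched, TGANTCA, had a match in Il6, Lif and Tnfaip6. Over all genes with a window, 5.14% held a kappaB match and 8.97% a TGANTCA match.

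**Figure D4:**
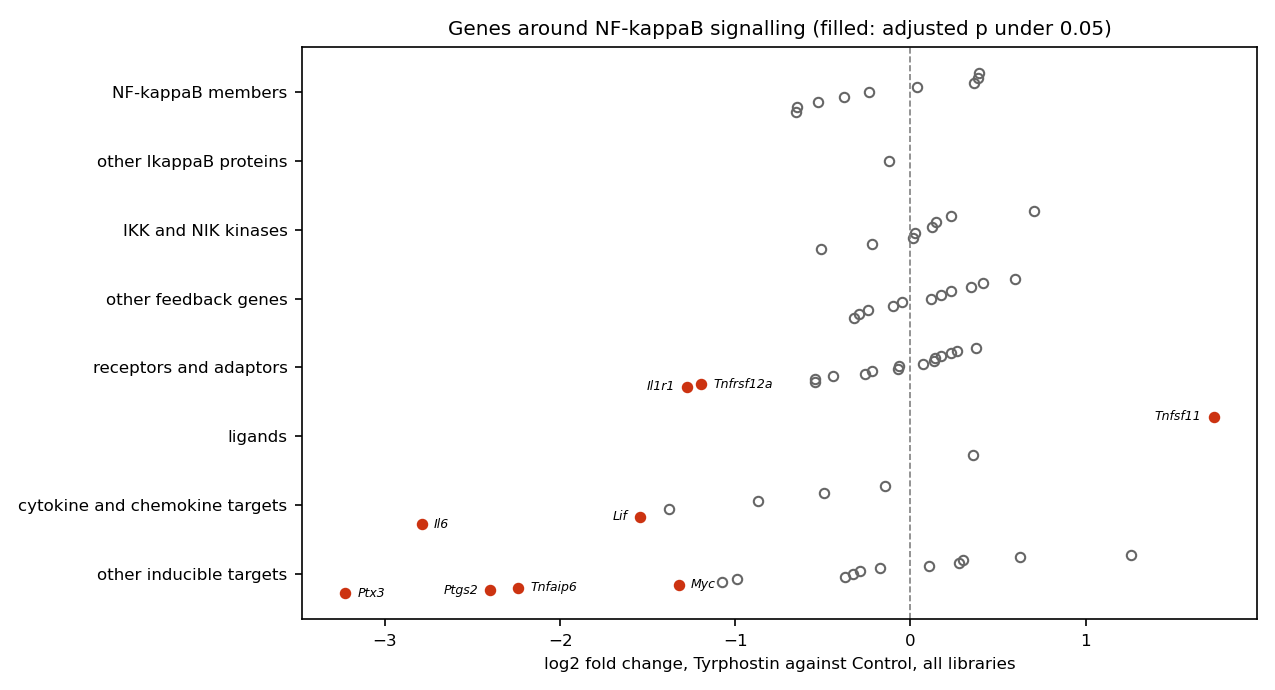
Log2 fold change, Tyrphostin against Control over all libraries, of every tested gene in the member list and the 7 pathway lists, with filled points for an adjusted p under 0.05. The members lie between -0.65 and 0.39 with no filled point, while Il6, Lif, Ptgs2, Tnfaip6, Ptx3, Myc, Il1r1 and Tnfrsf12a are filled on the negative side and Tnfsf11 on the positive side.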

How the data were processed

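The deposited table, as the authors made it, holds raw counts for each gene symbol in 17 libraries. Reads were aligned and counted with STAR and HTSeq on GRCm38, per the submitters' processing notes; versions, annotation and strand setting are not given in the sources used here. Libraries were made with Smart-Seq2, per the labels' protocols, without molecular identifiers, so depth-based limits cover counting error only. Of the 25198 genes, 3576 had no count. All 31 library pairs of 1 group and batch differed by more than counting error (chi-square over its degrees of freedom: 11.8 to 84.1).

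Counts were tested in edgeR 4.0.16 (R 4.3.3) with filterByExpr, TMM scaling, robust quasi-likelihood fits and Benjamini-Hochberg adjustment over all genes tested, at 0.05. The SE is the log2 fold change divided by the square root of F. On simulated counts of 9603 genes, this test recovered 65.3% of 2-fold and 96.9% of 4-fold changes, with 4.27% of its calls false. Simulated libraries were drawn independently, with no batch or control set difference, so these rates may not hold for the real libraries. No change under 2-fold was simulated. DESeq2 1.42.0, limma-voom (limma 3.58.1), other scalings, filters and designs, and omission of single libraries were alternatives. Exon lengths and overlaps came from GENCODE M21, promoters from RefSeq.

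The members, the gene lists and the libraries left out together were chosen with earlier results of these data known. All members were named. Of each pathway list, called genes with an average log2 CPM of at least 3 were named, up to 4 by lowest p, or up to 2 of the most abundant where none was called.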

Additional observations from a re-analysis of the deposited data

Results flagged for a closer look

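Rela had 90.3 CPM (208 counts) in Control 9, while the other 4 Control libraries of batch 2 had 23.5 to 42.3 CPM. The gap to the next library exceeded the 95% limit of Dixon's test for 5 values. Of 30 groups of values searched, 1 stood out in this way, and chance gives about 1.5. On the log2 scale the Rela value did not exceed the limit, while 1 other did: Rel in Tyrphostin 6, at 18.7 CPM, with 34.5 to 46.8 CPM in the other 5 Tyrphostin libraries. Without Control 9 the log2 fold change of Rela over all libraries was 0.58 (edgeR adjusted p = 0.167), against 0.39 with it.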

How the results depend on the processing

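Over all libraries the count of 1018 genes was 619 without the batch term and 624 with a replicate block over numbers 1 to 6. That fit also leaves out Control 7 to 11, so that only batch 1 holds both groups; the same 12 libraries without the block gave 601. The count ran from 708 (without Tyrphostin 1) to 1314 (without Control 7) when 1 library was left out. Total-count scaling gave 715 higher and 396 lower, against 418 and 600. The 0 members called became 1 with total-count scaling (Nfkb2), with DESeq2 (Rel) and without Control 6, Control 7 and Tyrphostin 5 (Rel), and 0 to 2 with 1 library left out. With Control 7 to 11 left out, Relb turned to -0.32 with the replicate block and -0.12 without it, and Ikbkb to -0.15 and -0.20. Nfkbil1 turned to 0.26 with limma-voom. Leave-one-out values ran from -0.0762 to 0.17 for Relb and from -0.26 to 0.0898 for Nfkbil1. In batch 1 the 1 member called became 2 without a filter (Nfkb1 and Rela), 2 with DESeq2 (Nfkb1 and Rel), 2 with a replicate block over numbers 1 to 3 (Nfkb1 and Tnfaip3, at -0.83 and an adjusted p of 0.0463) and 0 with the same 6 libraries and no block, where 389 genes were called in place of 634. These last 2 fits, and the 12 libraries without a block, were chosen after seeing the data. With 1 library left out, 394 to 687 genes and 0 to 2 members were called; Nfkb2 ran from -0.0106 to 0.20 and Relb from -0.29 to 0.085, and Relb was 0.0353 with total-count scaling. In batch 2 the count of 61 was 222 without a filter, 303 with DESeq2, and 11 to 221 with 1 library left out; there Nfkb1 ran from -0.65 to 0.063, Nfkbiz from -0.37 to 0.0367, Rela from -0.58 to 0.0157 and Relb from -0.0455 to 0.51. The interaction had 79 genes and 1 member (Rela, adjusted p = 0.049996) without a filter; with 1 library left out, Nfkbia ran from -0.049 to 0.46 and Nfkbiz from -0.0696 to 0.32. Among Control libraries the count of 937 was 1473 with DESeq2 and 637 to 1025 with 1 left out. The members called there became 1 without a filter, 1 with DESeq2 and 0 to 1 with 1 left out. Total-count scaling turned Nfkb2 to 0.093 and Nfkbiz to 0.15, and no filter turned Nfkbiz to 0.00482. With 1 left out, Nfkb1 ran from -0.17 to 0.29, Nfkb2 from -0.22 to 0.0055, Nfkbia from -0.23 to 0.15 and Nfkbiz from -0.20 to 0.13. The leukocyte share difference ran from -0.0079 to 0.018 and that of theca and stroma from -0.0195 to 0.051 percentage points. The cause of these moves was not tested. Same-numbered libraries correlated at 0.32, 0.08, 0.05, 0.10, 0.03 and 0.11, and only numbers 1 and 6 matched their own number best. Numbers 4 to 6 join a batch 1 Control to a batch 2 Tyrphostin library, so those numbers do not pair samples within a batch. Of numbers 1 to 3, all in batch 1, only number 1 matched its own number best, which does not decide whether they are pairs. Pairing by control set was not tested. On simulated counts 65.3% of 2-fold changes were called, and smaller changes, which were not simulated, may often be missed in these libraries.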
